A study of Mus musculus with 2 samples.

Results

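Newborn retinal ganglion cells were taken from single-cell RNA-seq libraries of mouse eye cups at e15.5. The cells were chosen by their own UMI counts, so the genes used in the choice are described and not tested. A cell was a member when it had at least 200 genes, at least 2000 unique molecular identifiers (UMIs, which count captured transcripts) and a mitochondrial share of at most 15%. It also had to hold at least 1 UMI of Pou4f2, at least 1 UMI of Isl1 or Gap43, UMIs in at most 1 of Nefl, Nefm and Sncg, and no UMI of Crx or Tfap2b. This left 419 of 20430 cells that passed the filters, 207 in the control and 212 in the mutant. The control genotype, Myrf fl/fl, has loxP sites in both copies of Myrf. Mutants, Rx>cre Myrf fl/fl, carry the same floxed copies and a Cre transgene under Rx control that acts in the early eye field. The field gives rise to the neural retina and so to the ganglion cells themselves. Each genotype had 1 library, made from 3 pooled eye cups that were freed of cornea, lens and optic nerve and dissociated with papain. No comparison between the genotypes therefore has a replicate check, no test was made, and the intervals below cover counting error only.

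Retinal ganglion cells are the output neurons of the retina and the first of its neurons to be born. Progenitors that leave the cell cycle pass through a state that expresses Atoh7, a basic helix-loop-helix factor needed for this fate, and then switch on Pou4f2 and Isl1, a POU-domain and a LIM-homeodomain factor that act together on ganglion cell genes. An axon soon follows, with growth-associated proteins such as Gap43 first and neurofilaments (Nefl, Nefm) and gamma-synuclein (Sncg) later, so the rule selects cells early in that sequence.

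The libraries held 13017 control and 13880 mutant barcodes, with totals of 132436812 and 135678970 UMIs, and 9722 and 10708 cells passed the filters. Of the passing cells, 35 barcodes occurred in both libraries, but none among the newborn ganglion cells. The pools differed in sex: UMIs of Y-linked genes were found in 0 of 207 newborn ganglion cells of the control and in 110 of 212 (51.9%) of the mutant. Sex and genotype therefore cannot be told apart without a split by sex, which is given with the comparison of the genotypes. Myrf itself gave 8 UMIs over the control members and 1 over the mutant members, or 3.29 and 0.404 CPM (UMIs per 1000000 UMIs of the group). The captured 3′ ends were not placed against the deleted part of the gene here, so this level does not check the labels.

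A newborn ganglion cell was a cell of ordinary depth. Median depth of a member was 11374 UMIs (control) and 10677 UMIs (mutant), against 11726.5 and 10521 over all passing cells, and 3356 and 3258.5 genes were detected. Doublet scores above the control library's threshold were found in 8 control and 6 mutant members (3.86% and 2.83%), close to the shares among all passing cells (3.26% and 2.84%).

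Atoh7, a marker of these cells that the rule did not use, was found in 98.1% of control and 96.2% of mutant members, at 5994 CPM (95% interval 5897 to 6092) and 4915 CPM (4828 to 5003). Its level per cell ran from 0 through a median of 53.8 to 186 per 10000 UMIs in the control, and from 0 through 43.6 to 170 in the mutant. Atoh7 RNA was also found in 9.44% and 18.7% of erythroid cells (median 17284.5 and 17114 UMIs) and in 14.2% and 21.2% of mesenchyme cells (14182 and 14521.5 UMIs), cell types that should lack the gene, so a share of cells with an Atoh7 UMI has a background of that size. Pou4f2 left far less background. It was found in 0.201% and 1.10% of the erythroid cells and in 1.65% and 2.25% of the mesenchyme cells. These groups were not free of members, since 0 and 2 of the erythroid and 5 and 2 of the mesenchyme cells also met the rule.

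Pou4f2 (chromosome 8, 78433010 to 78436645, minus strand, GRCm38) gave 1235 UMIs in control members and 1090 in mutant members, or 508 CPM (480 to 537) and 441 CPM (415 to 468). Isl1 was found in 95.2% and 92.9% of the members and Gap43 in 73.4% and 78.3%. Genes of later ganglion cells were at or near 0: there was no UMI of Eomes, Nefh, Shh or Irx6 in either library, which allows at most 3 UMIs each. Slc17a6, the vesicular glutamate transporter of ganglion cells, was at 0.823 CPM in the control and had no UMI in the mutant, against 49.1 and 56.3 CPM in maturing ganglion cells, which meet the same rule but hold UMIs of 2 or 3 of the neurofilament and synuclein genes. Isl2 was at 1.23 and 0.809 CPM, against 18.4 and 26.8 CPM in those cells.

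Cells just inside and just outside the limit of the rule were set side by side. Most members had a UMI of none of Nefl, Nefm and Sncg (148 in the control, 155 in the mutant), while 59 (28.5%) and 57 (26.9%) had UMIs of exactly 1, mostly Nefm. Just outside the limit, 38 control and 47 mutant cells had UMIs of 2 of the 3 genes. Just inside it, Atoh7 stood at 4738 and 4851 CPM, and just outside at 2381 and 2750 CPM. Gap43 went the other way, from 693 and 658 CPM inside to 1070 and 1303 CPM outside. Hes5 was at 473 and 383 CPM inside, and at 87.6 and 56.6 CPM outside. A further 237 control and 482 mutant cells had Atoh7 and Isl1 or Gap43 UMIs but none of Pou4f2, and their Stmn2 level, 167 and 140 CPM, was below the 1491 and 1351 CPM of the members.

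Because absence of a gene depends on depth, the rule was applied again after each cell was thinned to 5000 UMIs. Newborn cells made up 36.6% (32.7 to 40.8) of newborn plus maturing ganglion cells in the control and 32.4% (28.8 to 36.2) in the mutant before thinning, and 43.2% (38.3 to 48.2) and 39.8% (35.4 to 44.4) after it. Of the members after thinning, 145 and 152 had been members before, and 16 and 30 had been counted as maturing. The maturing cells were deeper, with medians of 17302.5 and 17375 UMIs, so a part of the border between the states is set by depth.

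Along a series of groups from progenitors to maturing ganglion cells, newborn cells stood between the Atoh7-rich and the maturing cells for Hes5, Stmn2, Klf7 and Ebf1. They did so for Atoh7 too, but the Atoh7-rich cells were cut on Atoh7 itself, so that step is in part set by the choice. With a cut at 1 or more Atoh7 UMIs the order of shares was the reverse. After thinning to 2000 UMIs, Atoh7 was found in 66.0% and 62.2% of those cells and in 98.1% and 93.4% of newborn cells. Since the rule defines these groups, the series is a description. Atoh7 was at 7877 and 7093 CPM in cells with 5 or more Atoh7 UMIs and no Pou4f2, at 6522 and 4940.2 CPM in newborn cells with none of the 3 late genes, at 4738 and 4851 CPM in those with 1, and at 905 and 881 CPM in maturing cells with all 3. Stmn2, a tubulin-binding protein of growing axons, was at 186 and 177, then 1079 and 1142, then 2472 and 1876, and at last 5008 and 4755 CPM over the same groups. Sox4, a factor of neuronal differentiation, was near its later level in the newborn cells, whereas Klf7, a factor of axon growth, was still below it. In the control, Sox4 was at 518 CPM in the Atoh7-rich cells, 1241 and 1639 CPM in newborn cells with 0 and 1 late genes, and 1455 CPM in maturing cells with all 3. Klf7 was at 221 and 223 CPM in newborn cells with none of the late genes, at 438 and 342 CPM in those with 1, and at 677 and 691 CPM in maturing cells with all 3.

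**Figure D1:**
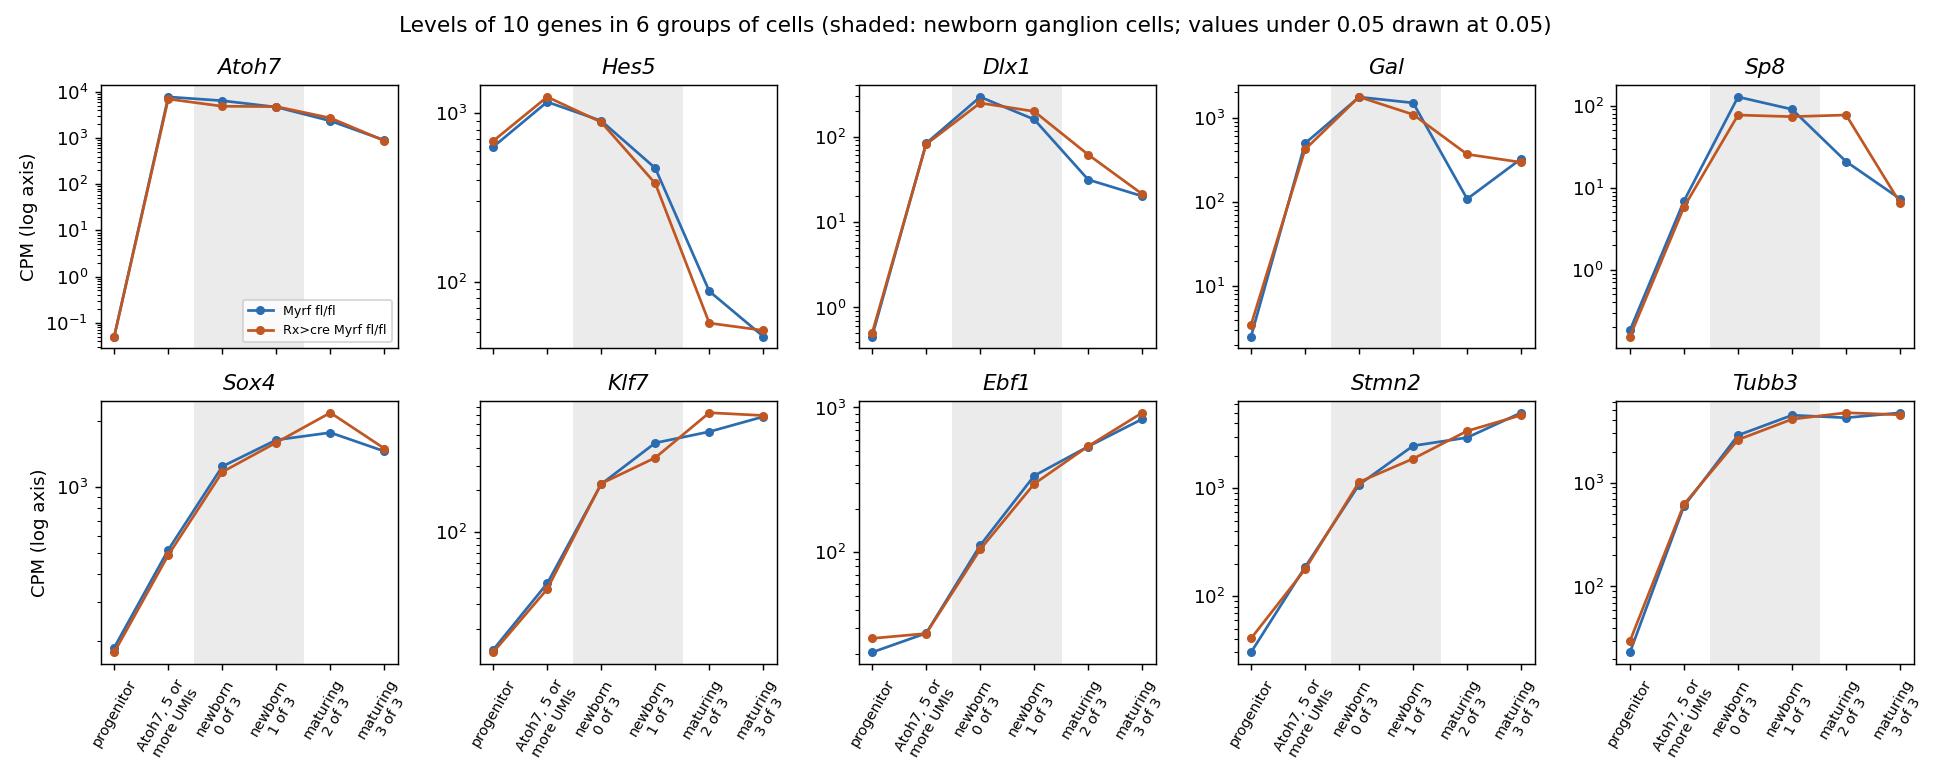
Level (CPM, log axis) of 10 genes in 6 groups of cells from progenitors to maturing ganglion cells, with a line for each library and the newborn groups shaded. Gal, Dlx1 and Sp8 stand highest in the newborn groups, Atoh7 and Hes5 are higher before them, and Stmn2 and Ebf1 are higher after them. The higher Atoh7 level before them is in part set by the cut at 5 or more Atoh7 UMIs.

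Compared with maturing ganglion cells, newborn cells held more RNA of neurogenic, Notch pathway and cell cycle genes and less of axon and synapse genes. Past 2-fold in both libraries, 434 of 9840 genes with at least 100 UMIs (4.41%) were higher and 914 (9.29%) were lower in the newborn cells. Of 19 measured neurogenic factors, 11 were higher and 0 lower, of 16 Notch pathway genes 8 were higher and 1 lower, and of 15 cycling genes 11 were higher and 0 lower. Of 31 axon and cytoskeleton genes 0 were higher and 23 lower, with median log2 ratios of −1.57 and −1.58, and of 29 synapse and excitability genes 0 were higher and 22 lower. Over all genes measured the median log2 ratio was 0.03 in the control, so these lists stood away from the whole in both directions. Newborn and maturing cells are split by UMIs of Nefl, Nefm and Sncg, so these differences are a description and in part set by the rule.

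Among the genes with the largest ratios were a receptor, a Notch target and homeobox factors. Sstr2, a somatostatin receptor, was at 56.4 and 69.9 CPM in newborn cells and at 1.26 and 2.00 CPM in maturing cells. Hes5, a Notch effector that represses neurogenic genes, was at 776 and 743 CPM in newborn cells and at 50.2 and 51.7 CPM in maturing cells. Insm2, a zinc-finger factor, was at 242 and 175 CPM against 14.9 and 14.8 CPM. Dlx1 and Dlx2, homeobox factors known to promote ganglion cell survival and fate, were both higher. Dlx1 was at 251 and 232 CPM against 20.9 and 24.4 CPM, and Dlx2 at 210 and 228 CPM against 20.3 and 24.5 CPM. Gadd45a, a stress and growth arrest gene, was at 1314 and 1192 CPM against 114 and 119 CPM.

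The genes with the largest ratios in the other direction were neuronal. Calb2, the calcium-binding protein calretinin, was at 1.23 and 1.21 CPM in newborn cells and at 107 and 112 CPM in maturing cells. Ina, the neurofilament subunit alpha-internexin, which the rule did not use, was at 32.1 and 17.0 CPM against 1612 and 1483 CPM. Rgs4, a regulator of G-protein signalling, had no UMI in the newborn cells and was at 62.9 and 73.2 CPM in the maturing cells. Mapt, the microtubule-associated protein tau, was at 13.2 and 16.6 CPM against 447 and 421 CPM, and Dcx, doublecortin, at 14.8 and 18.2 CPM against 281 and 280 CPM. Not all neuronal genes were lower. Chrna3, a nicotinic receptor subunit, was at 151 and 149 CPM in newborn and 160 and 164 CPM in maturing cells. Of 32 guidance and adhesion genes 2 were higher and 7 lower past 2-fold. The higher were the receptors Robo1 and Epha3, with Robo1 at 42.0 and 26.7 CPM against 10.5 and 8.38 CPM. The receptor Dcc, just short of 2-fold in the mutant, was at 70.0 and 60.2 CPM against 34.7 and 30.3 CPM, whereas the adhesion molecule L1cam was among the lower, at 7.82 and 13.3 CPM against 103 and 110 CPM. Of 28 ligands and trophic receptors 5 were higher and 14 lower. The heparin-binding growth factor Mdk, among the higher, was at 1407 and 1315 CPM against 236 and 191 CPM.

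Compared with cells that had 5 or more Atoh7 UMIs and no Pou4f2, the picture turned. The limit of 5 was chosen after the values were seen, because cells with 1 or more Atoh7 UMIs included cells rich in myeloid RNA such as S100a8, S100a9 and Lyz2. Past 2-fold in both libraries, 324 of 10176 genes (3.18%) were higher and 631 (6.20%) lower in newborn cells; with 1 or more Atoh7 UMIs the counts were 421 (3.56%) and 1347 (11.4%) of 11810. Of 21 ganglion cell transcription factors 11 were higher and 0 lower, of 31 axon genes 20 were higher and 0 lower, and of 13 neuronal RNA-binding protein genes 6 were higher and 0 lower. Of 20 neurogenic factors 1 was higher and 11 were lower, and of 15 cycling genes 0 were higher and 14 lower.

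Irx2, a homeobox factor, was at 104 and 78.8 CPM in newborn cells and at 2.30 and 2.20 CPM in the Atoh7-rich cells. Igfbpl1, a secreted protein linked to axon growth, was at 587 and 575 CPM against 27.5 and 21.5 CPM, and Elavl4, a neuronal RNA-binding protein, was at 451 and 486 CPM against 19.2 and 31.0 CPM. Among the lower genes were basic helix-loop-helix factors of progenitors and a Notch ligand. Neurog2 was at 80.3 and 101 CPM against 1152 and 1115 CPM and Olig2 at 0.823 and 4.85 CPM against 128 and 130 CPM. Dll4, a Notch ligand, was at 0.823 and 4.45 CPM against 86.9 and 81.8 CPM. Hes6, a factor that opposes Notch effectors, was lower to a smaller extent, at 757 and 802 CPM against 1726 and 1749 CPM. Some factors of other fates were lower too. Cells with a Crx or Tfap2b UMI had been removed from the newborn and the comparison groups alike, so these levels are in part set by the choice of cells. Otx2 of photoreceptor precursors was at 48.6 and 62.7 CPM against 424 and 427 CPM, Ptf1a of amacrine and horizontal precursors at 13.6 and 17.8 CPM against 115 and 115 CPM, and Onecut1 at 0.823 and 1.21 CPM against 52.1 and 43.1 CPM. Of 5 measured photoreceptor markers 1 was higher and 4 were lower, and of 3 amacrine markers 1 was higher and 2 were lower. The higher ones were Thrb, a thyroid hormone receptor of cone precursors, at 37.9 and 29.1 CPM against 10.6 and 9.35 CPM, and Gad2, which makes the transmitter GABA, at 123 and 134 CPM against 25.7 and 33.3 CPM. Against progenitors (UMIs of progenitor markers that include Sfrp2, none of Atoh7 or Pou4f2), 627 of 11795 genes (5.32%) were higher and 1480 (12.5%) lower, and 7 of 8 measured progenitor markers were lower.

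A set of 18 genes was highest in the newborn cells, more than 2-fold above the maturing, the Atoh7-rich and the progenitor cells in both libraries (0.195% of 9234 genes). This rule was chosen after values were seen. Gal, the neuropeptide galanin (chromosome 19, 3409915 to 3414544, minus strand), had the most UMIs of them, at 1682 CPM (1631 to 1735) and 1573 CPM (1524 to 1623) in newborn cells, 309 and 301 CPM in maturing cells, 495 and 420 CPM in Atoh7-rich cells, and 2.52 and 3.46 CPM in progenitors. The zinc-finger factor Sp8 was at 117 and 76.0 CPM, against 8.33 and 12.1, 6.91 and 5.82, and 0.183 and 0.154 CPM in the same order. Acvr1c, a receptor of the TGFβ superfamily, was at 23.9 and 35.2 CPM and at or below 3.30 CPM in each other group. Gad2, a marker of other retinal neurons later, was at 42.9 and 53.2 CPM in maturing cells and 33.3 and 38.4 CPM in progenitors. Insm2, Dlx1, Hey1, Thrb and Mfap4 were also in this set. Hey1, a Notch effector, was at 99.2 and 82.9 CPM in newborn cells.

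**Figure D2:**
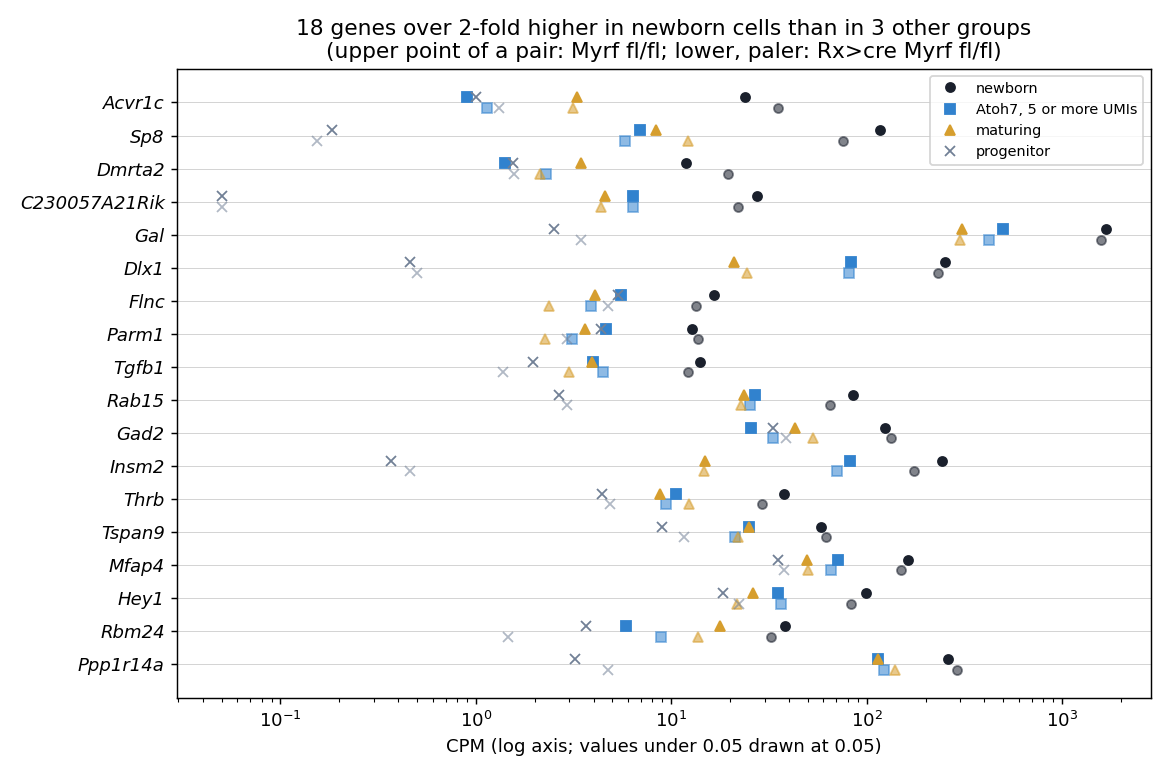
Level (CPM, log axis) of the 18 genes in newborn, maturing, Atoh7-rich and progenitor cells, with both libraries shown. In each row the newborn points lie to the right of all others, by the most for Acvr1c and by the least for Ppp1r14a, whose smallest log2 ratios were 2.85 and 1.06.

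The promoters of these genes were searched for E-boxes, the sites that Atoh7 and other basic helix-loop-helix factors are known to bind. RefSeq promoter windows of 300 bases on GRCm38.p6, from 250 before to 50 after each start, were found for 16 of the 18 genes. CAGATG or its reverse complement CATCTG was in a window of 6 of the 16 genes (37.5%) and of 19.2% of 27025 genes, and CAGCTG, which reads the same on both strands, in 3 of 16 (18.8%) and 18.3%. Some genes have several windows, and the 16 genes had 27 of the 32851 in all. By window, CAGATG was in 6 of 27 (22.2%) against 17.2% of all windows, and CAGCTG in 3 of 27 (11.1%) against 16.3%. The motifs differ in letters and cannot match at the same place, and a match is a description of the sequence and not a binding site. Shown here are 150-base stretches, from 120 before to 30 after the start, of Insm2 (chr12:55598797-55598946, plus strand) and Gad2 (chr2:22622207-22622356, plus strand), which hold a match in capitals, and of Gal (chr19:3414515-3414664, minus strand), the gene of the set with the most UMIs, which holds none.
Insm2: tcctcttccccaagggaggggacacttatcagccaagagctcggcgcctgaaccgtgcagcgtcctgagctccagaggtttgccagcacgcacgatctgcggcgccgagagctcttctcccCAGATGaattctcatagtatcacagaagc
Gad2: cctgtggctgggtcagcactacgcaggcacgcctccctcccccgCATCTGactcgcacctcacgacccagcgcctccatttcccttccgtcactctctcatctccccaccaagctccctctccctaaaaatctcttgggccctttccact
Gal: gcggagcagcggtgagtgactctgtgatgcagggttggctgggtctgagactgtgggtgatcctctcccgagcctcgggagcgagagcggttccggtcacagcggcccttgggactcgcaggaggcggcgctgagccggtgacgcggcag

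Newborn cells were not uniform, and Gal RNA was held by some of them and not by others. Gal UMIs were found in 124 of 207 control members (59.9%, 52.9 to 66.6) and in 127 of 212 mutant members (59.9%, 52.97 to 66.6). After thinning to 2000 UMIs the shares were 51.7% and 44.3% in newborn cells, 31.3% and 30.8% in maturing cells and 0.27% and 0.68% in progenitors, which should lack the gene. Before thinning the progenitor shares were 2.26% and 3.41%, at medians of 10649 and 9871 UMIs. The median level per cell was 3.27 (control) and 1.97 (mutant) per 10000 UMIs, and the highest cell had 182 and 208. The 5 richest cells held 28.3% and 26.7% of the Gal UMIs, so the level was carried by many cells but unevenly.

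Members with Gal RNA held more Hes5, Insm2 and Atoh7 RNA and less Gap43, Stmn2 and Ebf1 RNA than members without it. This split and those that follow were chosen after values were seen and are descriptions. Past 2-fold in both libraries, 48 of 5834 genes (0.823%) were higher and 21 (0.360%) lower in members with Gal. Hes5 was at 1147 and 1087 CPM in members with Gal and at 237 and 236 CPM in those without. Chodl, a membrane protein, was at 44.4 and 40.7 CPM against 4.04 and 5.01 CPM, and Insm2 at 341 and 249 CPM against 97.0 and 65.2 CPM. Atoh7 differed less, at 7218 and 5487 CPM against 4213 and 4068 CPM. On the other side, Ebf1, a factor of differentiating ganglion cells, was at 100 and 98.9 CPM with Gal and 293 and 250 CPM without it. Gap43 had log2 ratios of −1.19 and −1.41, Elavl4 of −0.92 and −0.95, and Stmn2 of −0.84 and −0.83. Pou4f2 was nearly level, with log2 ratios of −0.09 and −0.18. Median depth was 11140.5 and 10542 UMIs with Gal and 12051 and 11137 UMIs without, so the members with Gal were not the deeper ones.

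**Figure D3:**
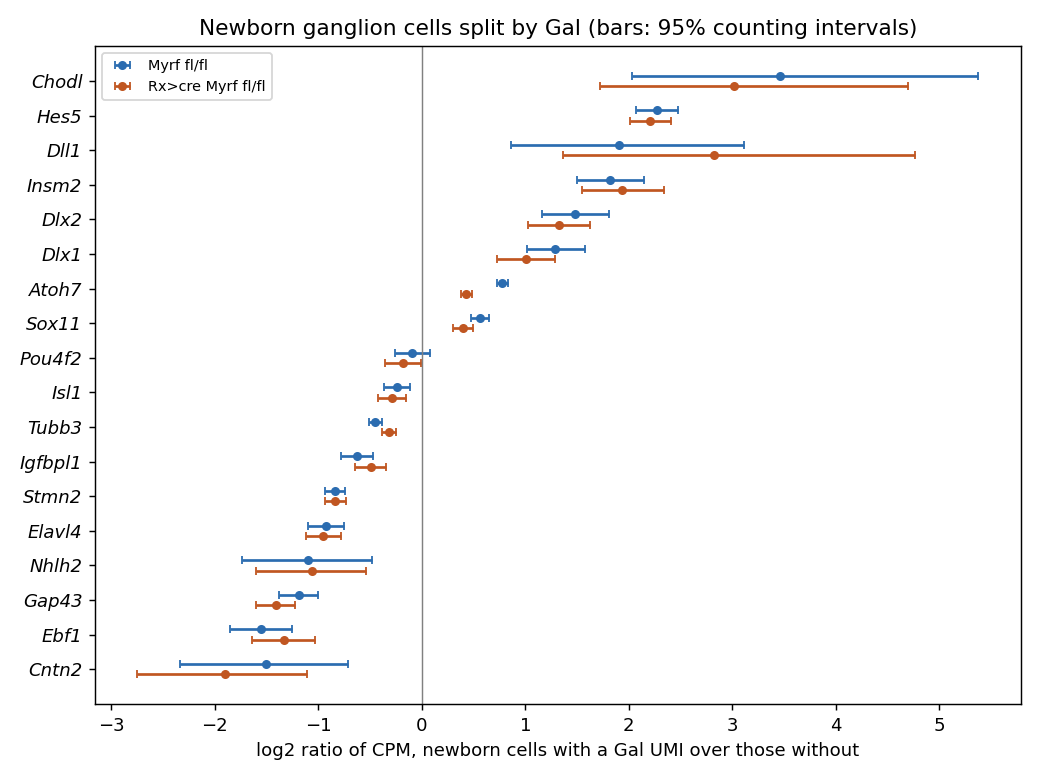
Log2 ratio of CPM in members with Gal UMIs over members without, for 18 genes in each library, with exact conditional intervals. Hes5, Chodl, Dll1 and Insm2 lie above 0 in both libraries, Gap43, Ebf1 and Cntn2 lie below it, and Pou4f2 and Isl1 lie close to it.

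Split by Isl1 and Gap43, the members with Isl1 alone held more Gal and Hes5 RNA than those with both. Most held both (142 control and 151 mutant cells, 68.6% and 71.2%), 55 and 46 held Isl1 alone, and 10 and 15 held Gap43 alone. In cells with Isl1 alone against cells with both, 26 of 5636 genes (0.461%) were higher and 55 (0.976%) lower past 2-fold in both libraries. Gal was at 3282 and 3188 CPM with Isl1 alone and at 1014 and 1214 CPM with both, and Hes5 at 1535 and 1541 CPM against 528 and 534 CPM. The few members with Gap43 alone had Gal at 5471 and 1119 CPM and Hes5 at 1257 and 901 CPM, and for Gal the libraries were far apart in these cells. Stmn2 had log2 ratios of −1.77 and −1.54, Lmo1 of −2.35 and −2.19, and Ebf1 of −2.76 and −2.03. The cells with Isl1 alone were shallower, at 9289 and 9214.5 against 12223.5 and 11481 UMIs, and the part of depth in this split was not tested.

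In members with UMIs of 1 late gene against those with none, 18 of 5834 genes (0.309%) were higher and 103 (1.77%) lower past 2-fold in both libraries. Mki67 had log2 ratios of −2.98 and −2.33 and Ube2c of −2.36 and −2.45, both genes of dividing cells, while Cntn2, an axonal adhesion molecule, had 2.77 and 1.80 and Nsg2, a neuronal vesicle protein, 1.64 and 1.36. RNA of other cell types moved with this split too. The pigment gene Pmel, with most of its UMIs in a few members, was at 2.78 and 2.83 CPM with 1 late gene and at 302 and 79.8 CPM with none. Splitting by the number of Pou4f2 UMIs, 6 or more (93 and 81 cells) against 1 (42 and 47 cells), gave 80 of 4476 genes (1.79%) higher and 97 (2.17%) lower. The cells with 6 or more were deeper, at medians of 12729 and 12018 UMIs against 8964 and 9351, and the part of depth in this split was not tested. Isl1 was at 1030 and 986 CPM in the cells with 6 or more and at 247 and 192 CPM in those with 1. Ccnd1, cyclin D1 of cycling progenitors, was at 138 and 432 CPM against 658 and 1208 CPM, and Hes1, a Notch effector of progenitors, had log2 ratios of −2.20 and −3.14. Atoh7 was nearly level in this split, at log2 ratios of −0.16 and 0.02.

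Some members held RNA of cycling cells. At least 2 of 15 cycling genes were found in 165 control and 175 mutant members (79.7% and 82.5%). After thinning to 2000 UMIs the shares were 30.9% (24.7 to 37.7) and 37.3% (30.7 to 44.1), against 94.3% and 93.9% in progenitors and 17.0% and 16.1% in maturing cells. Top2a, a topoisomerase of dividing cells, was found in 21.7% and 29.2% of members and, thinned, in 9.18% and 16.5%, against 49.7% and 51.9% of thinned progenitors. The 42 and 37 members with UMIs of 0 or 1 cycling genes had Ccnd1 at 74.4 and 75.4 CPM, Isl1 at 1268 and 884 CPM and Pou4f2 at 610 and 651 CPM. They were shallower, at medians of 8709 and 8423 UMIs against 11824 and 11137, and the part of depth in this split was not tested. The 4 control and 8 mutant members without Atoh7 stood apart, with Ccnd1 at 1575 and 1926 CPM and Isl1 at only 19.4 and 16.2 CPM.

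Newborn ganglion cells took a similar share of both libraries. They made up 2.13% (1.85 to 2.44) of passing control cells and 1.98% (1.72 to 2.26) of passing mutant cells, a ratio of 0.930 (0.764 to 1.13). The ratios of the neighbouring groups were 1.37 (1.28 to 1.47) for all cells with Atoh7 and no Pou4f2, 1.15 (1.08 to 1.22) for progenitors and 1.12 (0.973 to 1.29) for maturing ganglion cells. The first of these groups needs only 1 Atoh7 UMI, whose background in erythroid and mesenchyme cells was higher in the mutant library. With 5 or more Atoh7 UMIs the shares were 7.40% of control and 9.55% of mutant passing cells. Shares of a whole library also move with the numbers of other cells. There were 3267 control and 2448 mutant mesenchyme cells.

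Between the genotypes most genes of the newborn cells lay within 1.5-fold, and the list furthest from 0 among those of the neural retina was that of progenitor markers. Of 5836 genes with at least 100 UMIs, 195 (3.34%) were past 1.5-fold, 108 higher in the mutant (1.85%) and 87 lower (1.49%). When only the genes were kept of which the 5 richest cells held at most 25% of the UMIs in each library, 82 of 5286 (1.55%) were past that fold. The median log2 ratio of mutant over control was −0.03 over all genes measured. In the 187 control and 68 mutant members with Xist but no Y-linked UMI, 227 of 4422 genes (5.13%) were past 1.5-fold.

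**Figure D4:**
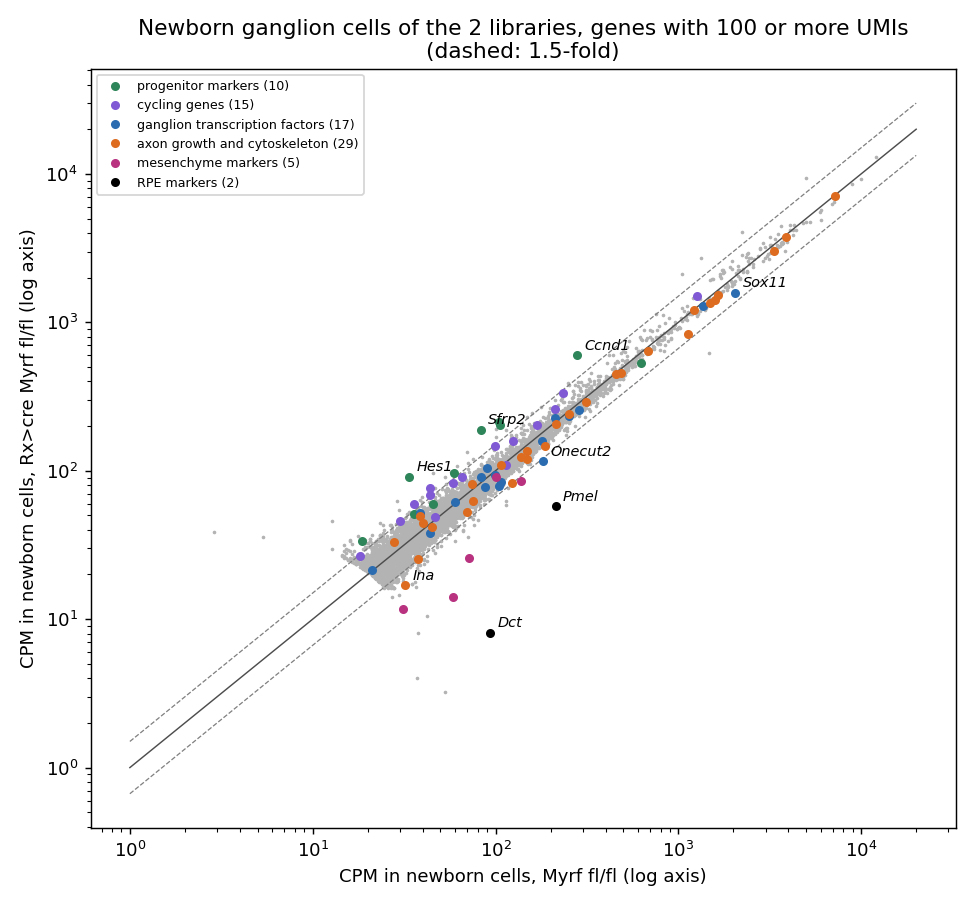
CPM of each measured gene in newborn ganglion cells of the control (x axis) and the mutant (y axis), both log axes, with dashed lines at 1.5-fold and list genes in colour. Most points lie between the lines, progenitor and cycling genes lie toward the mutant side, and pigment genes lie far toward the control side.

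The ganglion cell transcription factors lay near the middle. Of 30 listed, 17 were measured, 0 were past 1.5-fold higher and 1 lower, and the median log2 ratio was −0.11. Atoh7 had a ratio of 0.820 (0.800 to 0.840), and Sox11, a SoxC factor of neuronal differentiation, was at 2048 and 1588 CPM, with a ratio of 0.775 (0.743 to 0.809). In the members with UMIs of 0 or 1 cycling genes the log2 ratio of Atoh7 was 0.01, against −0.29 in all members. Onecut2, a factor of ganglion and horizontal cells, was the member past the limit, at 183 and 116 CPM, a ratio of 0.633 (0.543 to 0.736). Its log2 ratio was −0.66 in newborn cells, −0.36 in maturing ganglion cells, −0.26 in cells with Atoh7 and no Pou4f2, −0.44 in progenitors and 0.05 in all other passing cells, so it was below 0 in the neighbouring groups too. In members with Xist but no Y-linked UMI it was −0.49, and it was within 1.5-fold in 6 of 17 other settings, this one included. Of the genes in the rule, Pou4f2 had a ratio of 0.867 (0.798 to 0.941), Isl1 of 0.837 (0.785 to 0.893) and Gap43 of 1.02 (0.932 to 1.11).

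Axon genes lay close to the middle, within 1.5-fold but for Ina. Of 29 measured, 24 had a log2 ratio below 0, against 55.3% of all genes measured. Their median was −0.11 in newborn cells, −0.06 in maturing cells, −0.02 in cells with Atoh7 and no Pou4f2, −0.01 in progenitors and 0.19 in all other passing cells, and it ran from −0.14 to 0.03 over the settings tried. Map1b, a microtubule-associated protein of growing axons, was at 1130.25 and 834 CPM, with a ratio of 0.738 (0.696 to 0.781). For Ina the levels were 32.1 and 17.0 CPM and the ratio 0.529 (0.354 to 0.779). After thinning to 5000 UMIs the log2 ratio of Ina was −0.07, against −0.92 in all members, and it was within 1.5-fold in 2 of 17 other settings. Of the 18 genes that were highest in newborn cells, 14 had at least 100 UMIs in the members, and of these Sp8 alone was past 1.5-fold between the genotypes, at a ratio of 0.650 (0.538 to 0.785). In 8 of 17 other settings Sp8 was within 1.5-fold, with −0.50 on the log2 scale in members with Xist but no Y-linked UMI. Dmrta2, one of the 4 with fewer UMIs, was at 11.9 and 19.4 CPM. Gal had a ratio of 0.935 (0.895 to 0.977) and Insm2 of 0.725 (0.638 to 0.822). Hes5 had a ratio of 0.958 (0.898 to 1.02).

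Progenitor markers were higher in the mutant members, and cycling genes were slightly higher in all members but not under each setting. All 10 progenitor markers were measured and 7 were past 1.5-fold higher, with a median log2 ratio of 0.89, against 0.43 for these genes in maturing ganglion cells, 0.08 in progenitors, 0.07 in cells with Atoh7 and no Pou4f2 and 0.34 in all other passing cells. Ccnd1 was at 279 and 602 CPM, which is 2.16-fold (1.97 to 2.36). Hes1 was at 33.8 and 91.4 CPM, 2.71-fold (2.09 to 3.53), and Fgf15, a growth factor of progenitors, at 105 and 213 CPM, 2.03-fold (1.75 to 2.37). Ccnd1 UMIs were found in 40.1% of control and 53.3% of mutant members, and Fgf15 UMIs in 19.3% and 30.2%. Sfrp2, a secreted Wnt modulator of progenitors, went the other way in its share of members, 44.4% and 35.4%, although its level was 83.1 and 189 CPM, 2.27-fold (1.92 to 2.69). Vim, the intermediate filament vimentin, was the marker below 0, at a log2 ratio of −0.24. The richest cells weighed heavily: the 5 richest held 49.3% of control and 36.0% of mutant Ccnd1 UMIs, and 71.4% and 33.5% of those of Fgf15. Of 15 cycling genes 14 had a log2 ratio above 0, the median was 0.49, and 4 (Pcna, Tyms, Ccna2 and Mcm6) were past 1.5-fold. That median was 0.076 after thinning to 5000 UMIs, 0.086 without members with Top2a, Mki67 or Ube2c UMIs and −0.054 in members with both Isl1 and Gap43. In the 42 and 37 members with UMIs of 0 or 1 cycling genes, the median of the progenitor markers was −0.22, with fewer than 100 UMIs over both libraries for 9 of the 10. These were also the shallower members, at medians of 8709 and 8423 UMIs, and the part of depth was not tested. Ccnd1 had 25 and 22 UMIs in them, a ratio of 1.01 (0.545 to 1.87), whose counting interval lies below the 2.16-fold of all members. Sfrp2 had 14 and 8 UMIs, a ratio of 0.658 (0.239 to 1.68), also below its ratio in all members. For Fgf15, with 4 and 7 UMIs, the interval of 0.512 to 9.39 leaves no direction, and Vim, with 221 and 139 UMIs, was at 0.724 (0.582 to 0.899). The cycling genes are not compared there, since they chose those members. The log2 ratio of Tyms was at −0.05 once members with Top2a, Mki67 or Ube2c UMIs were left out. Progenitor marker RNA summed to 1394 and 2071 CPM in the newborn cells, to 9824 and 10163 CPM in progenitors and to 1349 and 1408 CPM in maturing cells, and its part in the genotype ratios was not tested. In the members with Xist but no Y-linked UMI, the median of the progenitor markers was 0.54, and the log2 ratios were 0.51 for Ccnd1, 0.28 for Fgf15 and 1.17 for Hes1.

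The neurogenic and Notch lists had medians near 0. Of 18 measured neurogenic factors, 3 were past 1.5-fold higher, Gadd45g and Sox2 among them, and 0 lower, with a median log2 ratio of 0.09. Of 11 Notch pathway genes Hes1 alone was past 1.5-fold, with a median of 0.06. The median was 0.10 for 7 cell cycle exit genes, 0.02 for 16 guidance and adhesion genes, of which Robo1 was past the limit at −0.65, 0.17 for 12 synapse genes, 0.06 for 13 ligands and trophic receptors, 0.02 for 12 neuronal RNA-binding proteins, −0.14 for 6 p53 target and apoptosis genes and 0.11 for 7 dissociation stress genes. In the last 3 of these lists no gene was past 1.5-fold either way.

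**Figure D5:**
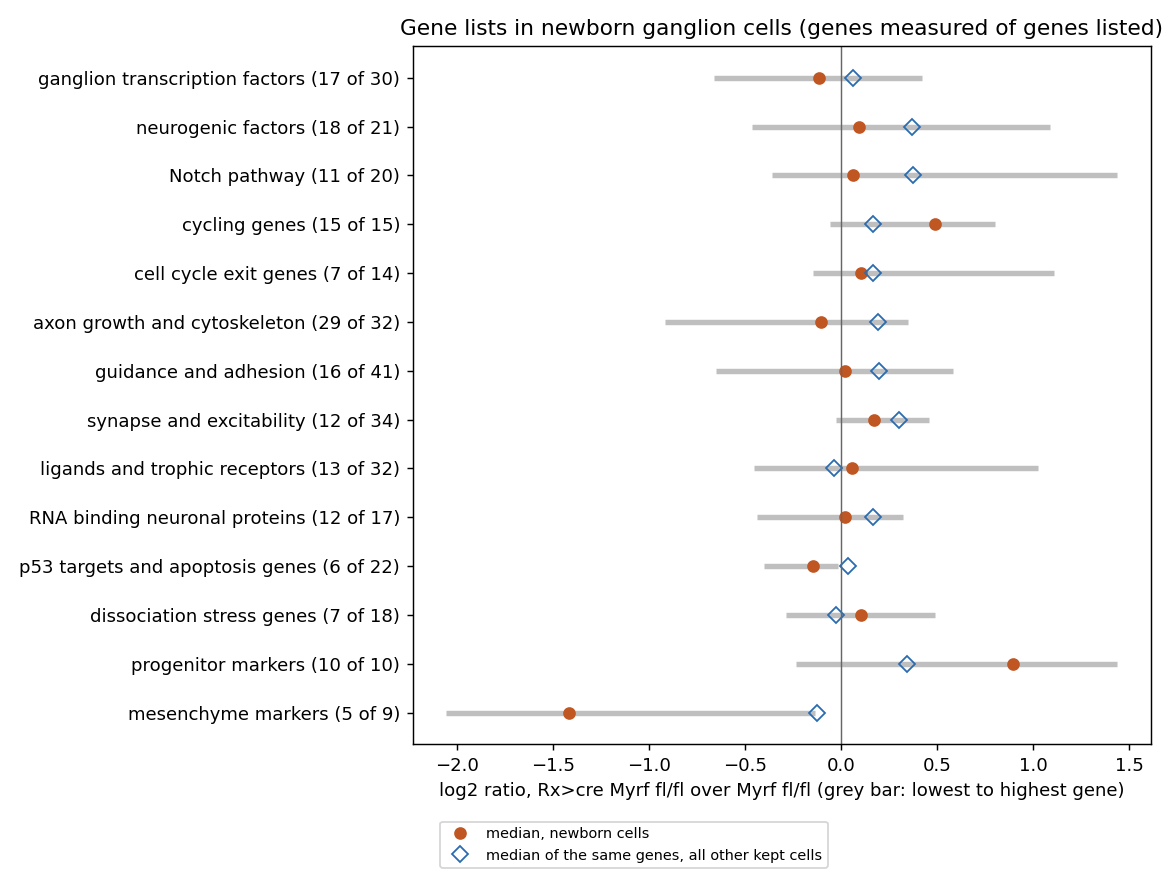
Median log2 ratio, mutant over control, of 14 gene lists in newborn ganglion cells and in other passing cells, with a grey bar from the lowest to the highest gene in newborn cells. Progenitor markers lie at 0.89 in newborn cells and at 0.34 in other passing cells, and ganglion factor and axon lists lie close to 0.

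Many of the largest ratios were of genes known from other cell types, with most of their UMIs in a few members. Pmel, Dct and Mlana, pigment genes of the retinal pigment epithelium and melanocytes, had 519 and 143, 228 and 20, and 90 and 10 UMIs, and the 5 richest cells held 98.3% and 95.8% of the Pmel UMIs. The 8 listed pigment genes summed to 365 and 72.0 CPM, and 19 and 16 members had a UMI of any. Mesenchyme markers summed to 443 and 244 CPM, with UMIs in 99 and 122 members, against 15269 and 19584 CPM in mesenchyme cells. S100a6 (7 and 95 UMIs) and Dlk1 (31 and 113) were higher in the mutant, and the 5 richest mutant cells held 96.8% and 97.3% of them. Among the other genes named by ratio, Aldh1a3, Sfrp2, Col9a1 and Gm10600 were higher in the mutant at log2 ratios of 1.23 to 1.10, and Trpm1, Krt18, Dcn, Gja1, Col3a1, Lum and Flrt2 were lower at −4.03 to −1.39. Of these, Gm10600 and Flrt2 were spread more widely, with 33.3% and 22.4%, and 36.4% and 33.3%, of their UMIs in the 5 richest cells. The sign of Aldh1a3, Sfrp2, Col9a1, Dlk1, Pmel, Dcn, Col3a1, Lum and Flrt2 turned under at least 1 other setting. Immune markers summed to 4.12 and 130 CPM over 8 and 6 members. Erythroid markers summed to 9605 and 18349.5 CPM, and their part in any ratio was not tested. Of the members, 0 control and 2 mutant cells themselves met the definition of erythroid cells, and 5 and 2 met that of mesenchyme cells. Amacrine, horizontal, photoreceptor and lens markers summed to 147 and 165, 41.2 and 40.8, 103 and 114, and 25.1 and 5.26 CPM.

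Among genes spread over many cells the ratios were smaller. The highest and lowest 10 of these were named after values were seen. Rps27rt, a ribosomal protein gene with near-identical copies whose reads may be shared, had a log2 ratio of 1.09 in newborn cells and 1.14 in other passing cells, and Snhg9, a small nucleolar RNA host gene, had 0.95 and 0.80, so both were higher across the mutant library. Pcna, the sliding clamp of DNA replication, had 0.80 in newborn cells and 0.16 elsewhere. Tnpo2, a nuclear import receptor, had 0.84 and 0.00. Of the lower genes, Kif1bp, a kinesin-binding protein needed for axon growth, had −1.14 in newborn cells and 0.00 elsewhere, Golga1, a Golgi protein, −1.01 and 0.02, and Dchs1, a large cadherin, −0.97 and −0.23. Each of these rests on 1 library per genotype.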

How the data were processed

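Per the labels, cells were captured with 10x Genomics 3′ chemistry, and the deposited files hold UMI counts for each gene and barcode, aligned by the authors to GRCm38 (mm10) and without normalization. The submitters' processing notes name Cell Ranger 7.1.0 and Seurat 4.1.1, whereas version 3.1.0 stands in the headers of the matrices. In the study's methods, counts above 2000 mark doublets to be discarded. Here the membership rule uses 2000 UMIs the other way, as a floor, so the members are cells of a depth that such a step, taken as printed, would discard. The medians of genes per cell that the study gives for this age are above that number. Whether the limit was applied as printed is not known here. Of 31053 genes, 31011 matched GENCODE M21, which gave positions.

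The members and gene lists were chosen with earlier results of these data known. For each group and library, UMIs were summed and divided by the group total (CPM). Sums carry exact Poisson intervals, shares exact Clopper-Pearson intervals, and ratios exact conditional binomial intervals, all at 95%, for counting error only, since UMIs of 1 cell are not independent. Depth was 2429559 control and 2473634 mutant UMIs over the members. Between genotypes a gene was called by size alone, past 1.5-fold with at least 100 UMIs over both libraries. Between states and within members the limit was 2-fold in both libraries. Named genes were the 10 highest and 10 lowest ratios, without rule, sex-linked, mitochondrial and haemoglobin genes, and some of them are not reported here. Erythroid cells had at least 50% haemoglobin UMIs, and mesenchyme cells at least 2 UMIs each of Col1a1 and Col3a1. Doublets were scored with Scrublet in scanpy 1.11.5. Its automatic threshold called 0 mutant cells, so the control threshold of 0.208 was applied to both libraries as an alternative chosen after seeing the data. Doublets were otherwise kept. Calculations used Python 3.11.15, numpy 2.4.6, scipy 1.17.1 and pandas 2.3.3, and were tested on simulated data. Other ages that the study covers were not used here.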

Additional observations from a re-analysis of the deposited data

Results flagged for a closer look

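UMIs of Y-linked genes were found in 51.9% of newborn ganglion cells of the mutant library (110 of 212) and in 0 of 207 of the control library, which allows a share of up to 1.45%. They were flagged because these genes enter no comparison of the report and were above the control level. Xist was found in 187 control members (90.3%) and in 78 mutant members (36.8%). The part of sex in the genotype ratios was not tested beyond the setting that kept members with Xist and no Y-linked UMI.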

How the results depend on the processing

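No paired analysis was possible because each genotype has 1 library, so leaving out a replicate and a replicate block could not be run either. The planned doublet setting was not run, since the automatic threshold called no mutant cell. The ratio of newborn shares stayed between 0.792 and 1.02 over the settings tried. Of the values that answer a comparison, 302 stayed within their interval or within 1.5 times under another setting, 35 left it and 8 turned from past 1.5-fold to the other side of 0. Of the values of single genes, 1111 stayed, 231 left and 24 turned in that way. With values nearer 0 counted too, 39 of 267 list medians and 79 of 1366 log2 ratios of single genes changed sign. The cause of these changes was not tested. The settings that removed cells by cycling, mitotic, pigment or mesenchyme RNA left 42 and 37, 141 and 123, and 180 and 179 members, and the one by Xist 187 and 68.

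Newborn cells as a share of newborn plus maturing cells (control, then mutant) were 28.7% and 25.5% with both Isl1 and Gap43 required, 29.2% and 26.0% with no UMI of the 3 late genes, 44.5% and 39.0% without cells over 20000 UMIs, 43.2% and 39.8% after thinning to 5000 UMIs, and 41.6% and 36.3% without cells with 2 or more cycling genes. The mutant share was 26.3% without mitotic cells and 36.4% where Xist but no Y-linked UMI was found. The 195 of 5836 genes past 1.5-fold between genotypes became 919 of 9301 at a minimum of 30 UMIs, 39 of 2538 at 300.0, 71 of 2771 after thinning, 113 of 3846 without mitotic cells and 55 of 978 without cells with 2 or more cycling genes. The 1348 genes past 2-fold between newborn and maturing cells became 808, 422 and 405 at the minimum of 300.0, after thinning and without cells with 2 or more cycling genes.

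Median log2 ratios of cycling genes were −0.054 with both Isl1 and Gap43, 0.086 without mitotic cells and 0.076 after thinning. Those of neurogenic factors were 0.27 without cells with 2 or more cycling genes and −0.036 with none of the late genes, and that of progenitor markers was −0.22 without cells with 2 or more cycling genes. The mesenchyme median was −0.61 without Scrublet doublets, −0.78 with both Isl1 and Gap43, −0.55 without cells over 20000 UMIs, 0.79 without cells with 2 or more cycling genes, 0.011 without mitotic cells, −2.75 in members with Xist but no Y-linked UMI, 0.59 without pigment or mesenchyme RNA and −0.75 for means over cells. The erythroid median was −0.10 with 2 or more Pou4f2 UMIs, 0.47 with Atoh7 required, 4.42 without cells over 20000 UMIs, −6.85 without cells with 2 or more cycling genes, −0.72 without mitotic cells, −5.33 in members with Xist but no Y-linked UMI, 0.45 without pigment or mesenchyme RNA, 1.76 with none of the late genes and 0.42 after thinning.

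Single genes past 1.5-fold whose log2 ratio changed sign were, without cells with 2 or more cycling genes, Ccdc8 (0.57), Cd3eap (0.20), Col3a1 (0.69), Golga1 (0.43), Lum (2.20), Rnf8 (−0.26), Robo1 (0.37), Sfrp2 (−0.60), Sox2 (−0.45) and Zfp36l1 (−2.80), where UMIs were few (8 and 9 for Robo1, 14 and 8 for Sfrp2). Without mitotic cells they were Aldh1a3 (−0.73), Col3a1 (0.011), Col9a1 (−0.53), Pmel (0.36) and Tyms (−0.048). In members with Xist but no Y-linked UMI they were Aldh1a3 (−0.78) and Dlk1 (−3.31). Dcn was at 1.40 without pigment or mesenchyme RNA, and Pmel at 0.12 without cells over 20000 UMIs. After thinning they were Cd3eap (0.064), Flrt2 (0.094) and Sfrp2 (−0.16), and without the 5 cells richest in the gene Col3a1 (0.11) and Dlk1 (−1.44).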
